A study of Homo sapiens with 6 samples.

Results

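The 39 human HOX cluster genes were followed in HCT116 MCM2-mAID cells. They were chosen by name, as the GENCODE protein-coding genes whose symbol is HOXA, HOXB, HOXC or HOXD followed by a number, and they are 39 of the 36415 genes with a transcript in the tables. HCT116 is an established colorectal carcinoma line, and in this derivative, a single clone, both groups carry MCM2 fused to a mini auxin-inducible degron (mAID) and a constitutively expressed plant receptor, AtAFB2, through which auxin sends the fusion to the proteasome. The MCM2-7 helicase, of which MCM2 is part, is loaded at replication origins in G1. There were 3 libraries of cells given auxin, here 500 µM 3-indoleacetic acid, and 3 libraries of cells given DMSO, the solvent. Both groups were synchronised by a double thymidine arrest and sorted in G1, according to the methods, and the libraries were independent replicates. All cells carried the degron, so auxin itself and the loss of MCM2 cannot be told apart. Because the degron acts on protein, MCM2 mRNA does not check the labels.

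HOX genes encode homeodomain transcription factors that give cells their position along the body axis. In mammals they lie in 4 clusters, and genes at the same place in different clusters, which descend from the same ancestral gene, form numbered paralog groups from 1 to 13. Genes at the 3' end of a cluster (low numbers) are active further towards the head, and genes at the 5' end (high numbers) further towards the tail, so adult cells keep a HOX profile that reflects their origin. Polycomb complexes keep silent HOX genes off, Trithorax and MLL complexes keep active ones on, CTCF and cohesin partition the clusters, retinoic acid induces the 3' genes, and PBX and MEIS proteins bind DNA together with HOX proteins. On hg38 the HOXA cluster lies on the minus strand of chromosome 7 with 11 genes, HOXB spans chr17:48528526-48728750 on the minus strand with 10, HOXC chr12:53938831-54056030 on the plus strand with 9, and HOXD chr2:176092721-176190907 on the plus strand with 9.

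The libraries held between 52.5 and 68.4 M estimated counts, and the HOX genes took between 21247 and 27527 of them, or 0.0403% to 0.0443% of the counts assigned to genes. Of 14 colon epithelial markers, 8 had a mean above 1 TPM, among them EPCAM at 261 TPM, KRT8 at 1789 TPM and the intestinal homeobox gene CDX2 at 14.01 TPM. CDX1 was at 0 counts in every library, and CDH17, VIL1, LGR5, KRT20 and CEACAM5 stayed below 1 TPM on average. The summed level of the epithelial list was 3739 to 4030 TPM in auxin and 3841 to 4326 TPM in DMSO. The leukocyte list summed to 14.3 to 16.0 TPM in auxin and 12.7 to 13.7 TPM in DMSO, nearly all of it CD68 at 12.2 TPM on average, with PTPRC, the pan-leukocyte marker, at 0.172 TPM. The fibroblast list summed to 19.7 to 22.1 TPM in auxin and 19.5 to 20.5 TPM in DMSO, mostly COL1A1 at 12.8 TPM and ACTA2 at 6.78 TPM, with COL1A2 and LUM below 0.1 TPM. The endothelial list stayed at or below 0.503 TPM.

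The HOX RNA level in these cells was dominated by the HOXB cluster, and by position by the central paralog groups together with group 9. Levels between genes are given in TPM, estimated counts per effective transcript length with every library brought to an equal total. Summed over all HOX genes the level was 364 TPM on average, of which HOXB gave 57.4%, HOXA 31.7%, HOXC 9.80% and HOXD 1.11%. By position, the 15 genes of paralog groups 4 to 8 held 57.8% of the HOX TPM, the 16 genes of groups 9 to 13 held 36.4% and the 8 genes of groups 1 to 3 held 5.87%. The highest single group was group 9 at 96.9 TPM, above group 7 at 75.7 TPM, so these shares depend on where the groups are cut. Of the 39 genes, 10 had a mean of at least 10 TPM, 15 lay between 1 and 10 TPM, 12 were below 1 TPM with at least 1 count in some library, and HOXD1 and HOXD13 had no counts in any library. A count of 0 over all 6 libraries allows up to 0.00600 TPM for HOXD1 and 0.00458 TPM for HOXD13, from counting error only.

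**Figure D1:**
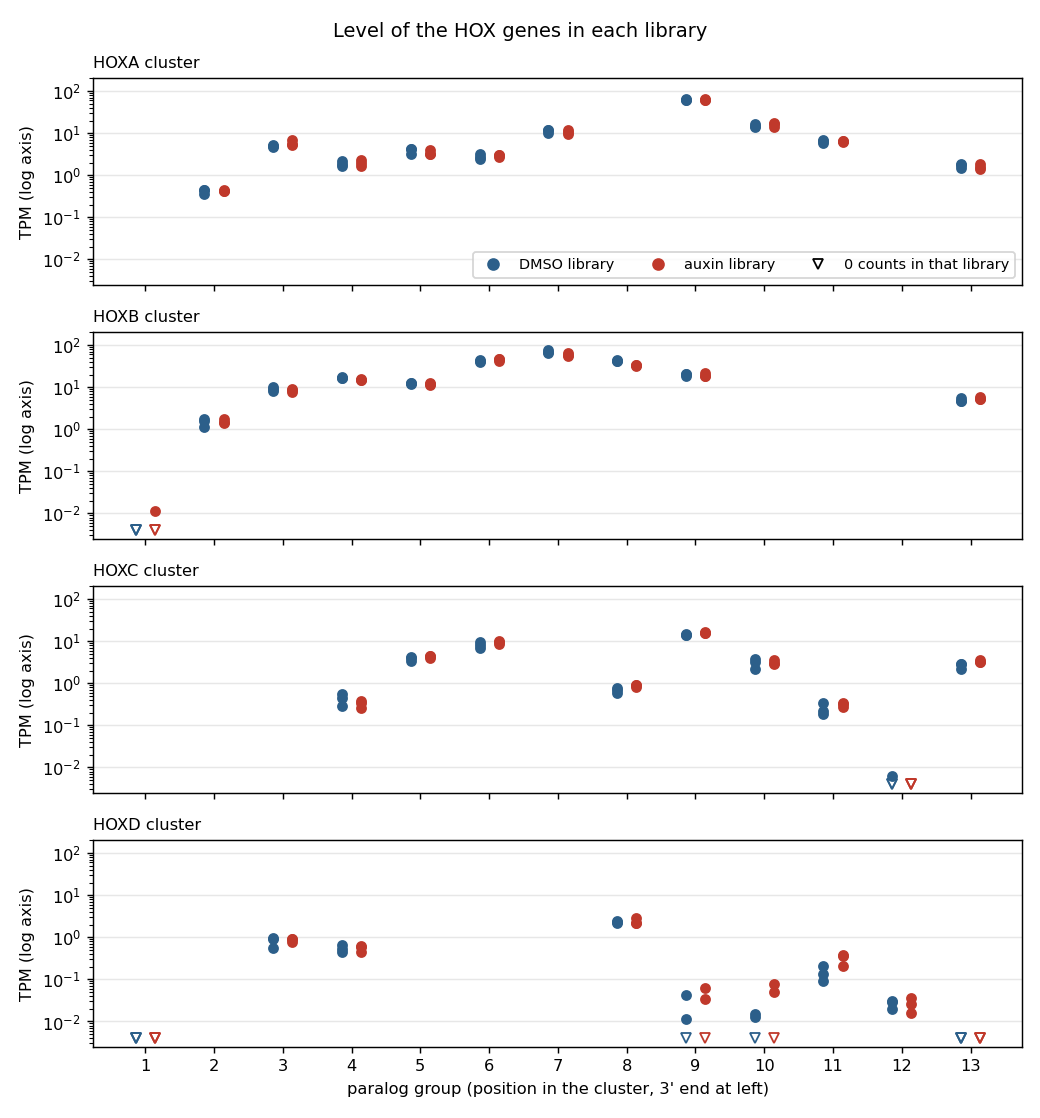
TPM of the HOX genes reported here in each library, on a log axis, against its paralog group, with 1 panel per cluster. Filled points are single libraries (blue DMSO, red auxin) and open triangles mark libraries with 0 counts. HOXB7 and HOXA9 are the highest, at 64.7 and 62.2 TPM on average, and the 5' end of HOXD lies below 1 TPM.

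HOXB7 and HOXA9, the latter a regulator of blood progenitors, were the most abundant members. HOXB7 stood at 55.2, 58.7 and 65.5 TPM in the auxin libraries and at 64.2, 68.6 and 76.1 TPM in the DMSO libraries. HOXA9 stood at 63.7, 61.9 and 61.1 TPM in auxin and at 64.6, 61.3 and 60.5 TPM in DMSO, so its ranges overlapped those of HOXB7 and the order of the pair was not resolved. HOXB6 followed at 43.1 ± 2.76 TPM (SD over both groups, n = 6) and HOXB8 at 38.0 ± 5.12 TPM, with ranges that overlapped over all 6 libraries. The SD of HOXB8 includes a difference between the groups, at 33.4 ± 0.596 TPM in auxin and 42.6 ± 1.13 TPM in DMSO. In auxin HOXB6, at 42.2 to 46.3 TPM, lay above HOXB8, at 32.7 to 33.8 TPM, while in DMSO their ranges overlapped. HOXB8 lay above the next gene, HOXB9 at 19.5 ± 1.38 TPM, in every library.

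Below these, HOXB4 (15.9 ± 1.03 TPM), HOXA10 (15.6 ± 1.37 TPM) and HOXC9 (15.2 ± 0.736 TPM) could not be ranked over all 6 libraries, since their ranges overlapped. In DMSO alone HOXB4, at 16.5 to 17.2 TPM, lay above HOXA10 at 13.9 to 16.3 TPM and HOXC9 at 14.3 to 15.2 TPM. HOXB5 stood at 12.0 ± 0.493 TPM and HOXA7 at 10.98 ± 0.906 TPM, also with overlap. The abundant genes therefore formed a run along HOXB from HOXB4 to HOXB9, whereas in HOXA the level was concentrated on HOXA9 and its neighbours HOXA7 and HOXA10. In HOXC the 3 highest genes were HOXC9, HOXC6 at 8.90 ± 1.22 TPM and HOXC5 at 4.08 ± 0.350 TPM. In HOXD they were HOXD8 at 2.35 ± 0.248 TPM, HOXD3 at 0.844 ± 0.157 TPM and HOXD4 at 0.55 ± 0.10 TPM.

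Members of the same paralog group differed widely between clusters. In group 9, HOXA9 was at 62.2 TPM, HOXB9 at 19.5 TPM, HOXC9 at 15.2 TPM and HOXD9 at 0.0250 TPM. In group 8, HOXB8 was at 38.0 TPM, HOXD8 at 2.35 TPM and HOXC8 at 0.788 TPM. In group 1, HOXB1, a hindbrain patterning gene in mouse, had 1 count in 1 library. In group 13, the most 5' genes, HOXB13, a marker of prostate and distal gut, was at 5.21 TPM, HOXC13 at 2.97 TPM and HOXA13 at 1.67 TPM. HOXC12 had 1 count in 1 library, and HOXD9, HOXD10 and HOXD12 had at most 5 counts in any library.

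The levels depend on how kallisto divided reads among a gene's transcripts, since a short transcript turns few counts into a large TPM. Counting only transcripts that GENCODE types as protein_coding, HOXB7 kept 94.2% of its TPM and HOXB8, HOXB4 and HOXB9 at least 99.99%. HOXA9 kept 61.3%, HOXB6 44.04% and HOXC9 64.5%. Under that count HOXB7 (61.0 TPM) and HOXA9 (38.1 TPM) still held ranks 1 and 2, HOXB8 took rank 3 and HOXB6 fell to rank 5. HOXD3 kept 4.33%, because HOXD3-204, a transcript with no defined coding sequence, held 95.6% of its TPM. HOXA3, a patterning gene of the neck region, owed 41.4% of its TPM to the 503-base transcript HOXA3-204. By GENCODE exons HOXB3 shares 433 bases with HOXB6 and 44 with HOXB4, HOXC6 shares 484 with HOXC4 and 73 with HOXC9, and HOXD10 shares 452 with HOXD11. On the same strand, an unnamed protein-coding gene with at most 3 counts in a library shares 397 with HOXA9 and 368 with HOXA10. Another, with at most 9 counts, shares 611 with HOXC5 and 166 with HOXC10. The division of reads between these genes is therefore uncertain. Antisense genes with overlapping exons, such as HOXA-AS3 over HOXA7 (1507 bases) and HOXB-AS1 over HOXB3 (374 bases), had no transcript in the tables, and the strand setting of the assignment is not given in the sources used here.

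Start regions are shown for HOXA9 and HOXD8, the highest members of HOXA and HOXD at 62.2 and 2.35 TPM. They are also shown for HOXB1 and HOXD13, undetected or nearly so and chosen after their values were seen. Each covers 300 bases around a RefSeq transcript start on GRCh38.p14, most of them upstream, is written 5' to 3' on the gene's strand, and has every CpG in capitals.
HOXA9, chr7:27165488-27165787, minus strand: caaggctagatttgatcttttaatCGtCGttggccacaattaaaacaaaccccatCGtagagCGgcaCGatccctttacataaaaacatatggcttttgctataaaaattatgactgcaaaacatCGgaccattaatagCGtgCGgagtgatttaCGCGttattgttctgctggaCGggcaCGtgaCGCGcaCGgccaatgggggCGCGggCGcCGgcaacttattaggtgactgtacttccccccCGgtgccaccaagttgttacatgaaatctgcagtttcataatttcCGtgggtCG
HOXD8, chr2:176129455-176129754, plus strand: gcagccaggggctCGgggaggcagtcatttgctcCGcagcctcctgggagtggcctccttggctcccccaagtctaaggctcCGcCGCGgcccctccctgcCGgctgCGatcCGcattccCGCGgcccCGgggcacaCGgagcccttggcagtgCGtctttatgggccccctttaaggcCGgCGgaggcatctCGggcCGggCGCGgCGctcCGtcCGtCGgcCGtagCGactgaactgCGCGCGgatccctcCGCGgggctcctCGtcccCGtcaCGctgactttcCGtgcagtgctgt
HOXB1, chr17:48530962-48531261, minus strand: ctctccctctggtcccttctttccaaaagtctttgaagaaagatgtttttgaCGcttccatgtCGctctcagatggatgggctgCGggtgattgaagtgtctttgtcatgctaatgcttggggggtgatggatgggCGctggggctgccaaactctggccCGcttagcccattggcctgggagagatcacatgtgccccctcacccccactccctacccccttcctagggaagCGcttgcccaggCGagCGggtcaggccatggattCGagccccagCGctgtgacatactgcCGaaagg
HOXD13, chr2:176092471-176092770, plus strand: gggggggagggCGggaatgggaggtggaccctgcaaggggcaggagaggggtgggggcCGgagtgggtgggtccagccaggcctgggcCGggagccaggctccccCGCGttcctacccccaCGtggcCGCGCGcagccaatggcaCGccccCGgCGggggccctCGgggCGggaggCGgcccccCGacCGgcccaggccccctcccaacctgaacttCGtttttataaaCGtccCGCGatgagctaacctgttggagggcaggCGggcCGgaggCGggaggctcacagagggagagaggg

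The HOXA9 window held 22 CpGs at an observed to expected ratio of 1.27, HOXD8 34 at 0.887, HOXD13 24 at 0.600 and HOXB1 11 at 0.436. RefSeq windows were found for 20 of the 39 genes, 27 windows in all, 7 of them for HOXA3 and 1 shared by HOXC4 and HOXC5. In HOXB only HOXB1 had a window, so the abundant HOXB genes are not covered. The median CpG ratio of the 27 windows was 0.849, against 0.579 over all 35116 windows, while the median GC content was 58.0% against 58.7%. The silent genes were not low as a class, since HOXD1 had a ratio of 0.871 and 36 CpGs.

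The windows were searched on both strands for 4 motifs. TATAAA, the TATA box, was in 5 of the 27 HOX windows and in 11.5% of all windows, and lay in those of HOXA9 and HOXD13 among the windows shown. CCAAT, bound by NF-Y, was in 18 of 27 and in 34.6% of all, including the HOXA9, HOXB1 and HOXD13 windows. TGATTNAT, a composite site of HOX and PBX proteins, was in 2 of 27, those of HOXA2 and HOXD11, and in 2.82% of all. AGGTCA, the core bound by retinoid and other nuclear receptors, was in 0 of 27 and in 13.8% of all. These are matches of letters and not sites.

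The clusters also encode microRNAs that pair with HOX mRNAs. The mature sequences of miR-10a and the miR-196 pair are shown with the seed (bases 2 to 8), the only part searched for here, in capitals. Other microRNA genes of the clusters, such as MIR10B in HOXD and MIR615 in HOXC, are not shown. These small RNAs were not measured in poly(A)-selected libraries. MIR10A lies at chr17:48579904-48579926 between HOXB4 and HOXB5, MIR196A1 at chr17:48632532-48632553 between HOXB9 and HOXB13, MIR196A2 at chr12:53991762-53991783 between HOXC10 and HOXC9, and MIR196B at chr7:27169528-27169549 within the span of HOXA9 (RefSeq, GRCh38.p14). By GENCODE spans MIR10A also lies within HOXB3, MIR196A1 within HOXB7 and MIR196A2 within HOXC6.
hsa-miR-10a-5p: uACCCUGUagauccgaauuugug
hsa-miR-196a-5p: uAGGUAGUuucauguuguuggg
hsa-miR-196b-5p: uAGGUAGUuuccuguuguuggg

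The miR-196 pair shares a seed. Its complement, ACTACCT, occurred in the 3' untranslated region of the canonical transcript of 8 of the 39 HOX genes (20.5%) and of 6.83% of 19566 other protein-coding genes. The holders were HOXA5, HOXA7 (4 matches), HOXA9 (2 matches), HOXB1, HOXB6, HOXB7, HOXB13 and HOXC8 (3 matches). The complement of the miR-10a seed, ACAGGGT, occurred in 7.69% of the HOX genes, HOXA3 and HOXB3 among them, against 12.4% of the others. HOXB8 and HOXB4 held neither match. Only exact matches to the whole seed were searched, so sites with a mismatch or a G:U pair would be missed. A gene without a match may therefore still be a target.

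The comparison of auxin with DMSO asks which HOX mRNAs differ when the degron cells are given auxin. Of the 39 genes, 32 passed the low-count filter and were tested, and 4 fell in auxin, HOXB8, HOXB4, HOXB7 and HOXB3. None rose. The auxin levels were between 0.795-fold and 0.860-fold of the DMSO levels. The test was the quasi-likelihood test of edgeR over all 15765 genes, with genes called at a Benjamini-Hochberg adjusted p under 0.1. Over all genes 6.78% were called, 4.32% higher and 2.46% lower in auxin, beside which the HOX count is 4 of 32, all lower. At an unadjusted p under 0.05 there were 9 of 32, beside 21.1% of all tested genes. The median log2 fold change of the 32 genes was -0.01 and that of all tested genes 0.01. On log2(TPM + 1) those medians were 0.04 and 0.05. In bulk RNA, fewer cells expressing a gene and less RNA per cell cannot be told apart.

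**Figure D2:**
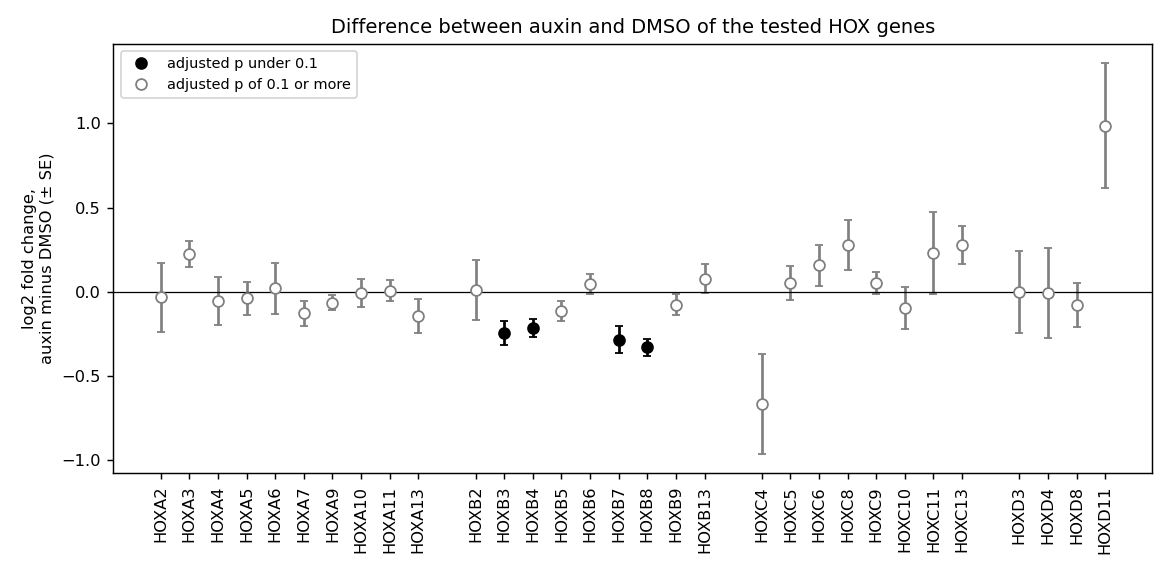
Log2 fold change (auxin minus DMSO) of the tested HOX genes reported here with its standard error, ordered by cluster and paralog group, n = 3 libraries per group. Filled points, HOXB3, HOXB4, HOXB7 and HOXB8, have an adjusted p under 0.1, and the widest bars belong to HOXD11 and HOXC4, which have few counts.

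HOXB8, a homeodomain factor that keeps mouse myeloid progenitors immature when overexpressed, had the smallest p of the members. Its level was 37.2, 35.3 and 36.1 CPM (counts relative to the TMM-adjusted library size) in the auxin libraries and 45.0, 43.965 and 47.6 CPM in the DMSO libraries. All auxin libraries lay below all DMSO libraries, with a gap wider than the spread within either group. The log2 fold change was -0.33 (SE 0.05, edgeR adjusted p = 0.00728). HOXB8 was called in all 17 alternative settings, with log2 fold changes between -0.41 and -0.30.

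HOXB4, which promotes self-renewal of blood stem cells when overexpressed, stood at 21.1, 21.3 and 22.6 CPM in auxin and 24.5, 25.3 and 25.7 CPM in DMSO. The groups did not overlap and the log2 fold change was -0.22 (SE 0.05, edgeR adjusted p = 0.0657). HOXB7 stood at 49.3, 53.2 and 58.3 CPM in auxin and 59.6, 64.5 and 72.1 CPM in DMSO. The highest auxin library lay just below the lowest DMSO library in CPM and above it in TPM (65.5 against 64.2), and the log2 fold change was -0.29 (SE 0.08, edgeR adjusted p = 0.0914). HOXB3, a hindbrain patterning gene in mouse, stood at 11.9, 13.5 and 12.3 CPM in auxin and 14.2, 15.8 and 14.7 CPM in DMSO. Its groups did not overlap in CPM either, with a log2 fold change of -0.25 (SE 0.07, edgeR adjusted p = 0.0979), but they too overlapped in TPM, at 7.54 to 9.20 in auxin and 8.33 to 10.4 in DMSO.

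**Figure D3:**
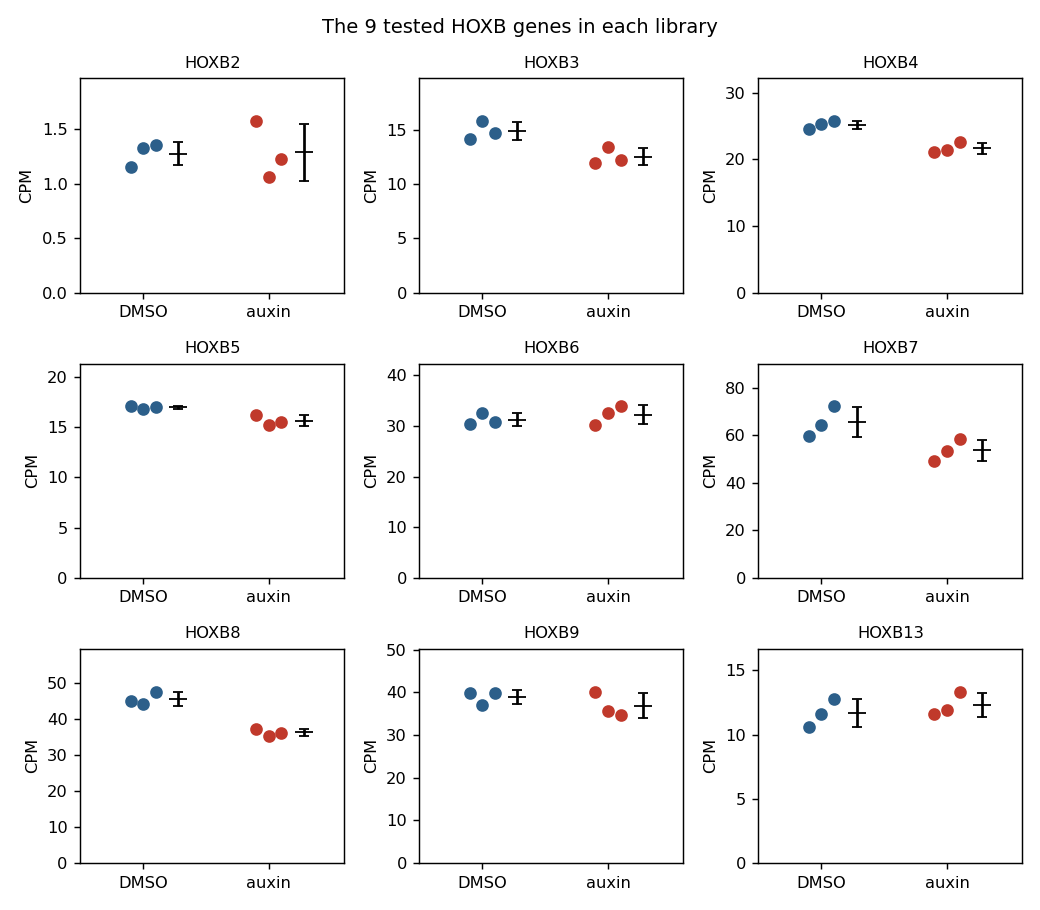
CPM of the 9 tested HOXB genes in each library (points), with mean and SD (bars, n = 3) beside each group; every axis starts at 0. HOXB3, HOXB4, HOXB5, HOXB7 and HOXB8 show no overlap between auxin and DMSO, whereas HOXB2, HOXB6, HOXB9 and HOXB13 overlap.

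The lower values did not run through the whole HOXB cluster. HOXB5, a gene expressed in the developing gut and lung, stood at 16.2, 15.2 and 15.6 CPM in auxin and 17.1, 16.8 and 17.0 CPM in DMSO. These did not overlap, but HOXB5 did not pass the test (log2 fold change -0.12, SE 0.06, edgeR adjusted p = 0.281). In TPM its groups overlapped, at 11.3 to 12.4 in auxin and 11.9 to 12.6 in DMSO. HOXB6, which lies between HOXB5 and HOXB7, stood at 30.3, 32.6 and 33.9 CPM in auxin and 30.4, 32.7 and 30.8 CPM in DMSO, with a log2 fold change of 0.05 (SE 0.06). HOXB9 was at a log2 fold change of -0.08 (SE 0.06) and HOXB13 at 0.08 (SE 0.09). Within libraries the ratio of HOXB8 to HOXB6 CPM, chosen after the values were seen, was 1.23, 1.08 and 1.07 in auxin and 1.48, 1.35 and 1.55 in DMSO. That ratio does not depend on the scaling of the libraries. Summed in TPM, HOXB was at 195 to 207 in auxin and 213 to 224 in DMSO, while HOXA was at 112 to 121 and 111 to 119 TPM. HOXC summed to 36.43 to 38.2 TPM in auxin and 32.1 to 36.41 TPM in DMSO, higher in auxin but with ranges that nearly met. The SD of this sum was 0.968 TPM in auxin and 2.26 TPM in DMSO. These cluster sums are a description, with no test.

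The 3 other calls rested on the full set of libraries and on the count scale. Without auxin replicate 2, DMSO replicate 2 or DMSO replicate 3, HOXB8 alone was called among the HOX genes. Without auxin replicate 1, HOXB8 was the only one of the 4 still called, and without auxin replicate 3 HOXB8 and HOXB7 were. Leaving out DMSO replicate 1 kept all 4. HOXB4 was called in 9 of 17 alternatives, HOXB7 in 9 and HOXB3 in 6, and each kept its direction in all 17. With offsets for effective length only HOXB8 was called, and HOXB4, HOXB7 and HOXB3 were at log2 fold changes of -0.22, -0.28 and -0.19. On log2(TPM + 1) HOXB3 was at -0.12. The fold change varied with transcript length over all genes. Tested genes within 10% of the effective length of HOXB8 had a median log2 fold change of -0.03, and those around HOXB4, HOXB7 and HOXB3 of -0.01, -0.04 and -0.0025.

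**Figure D4:**
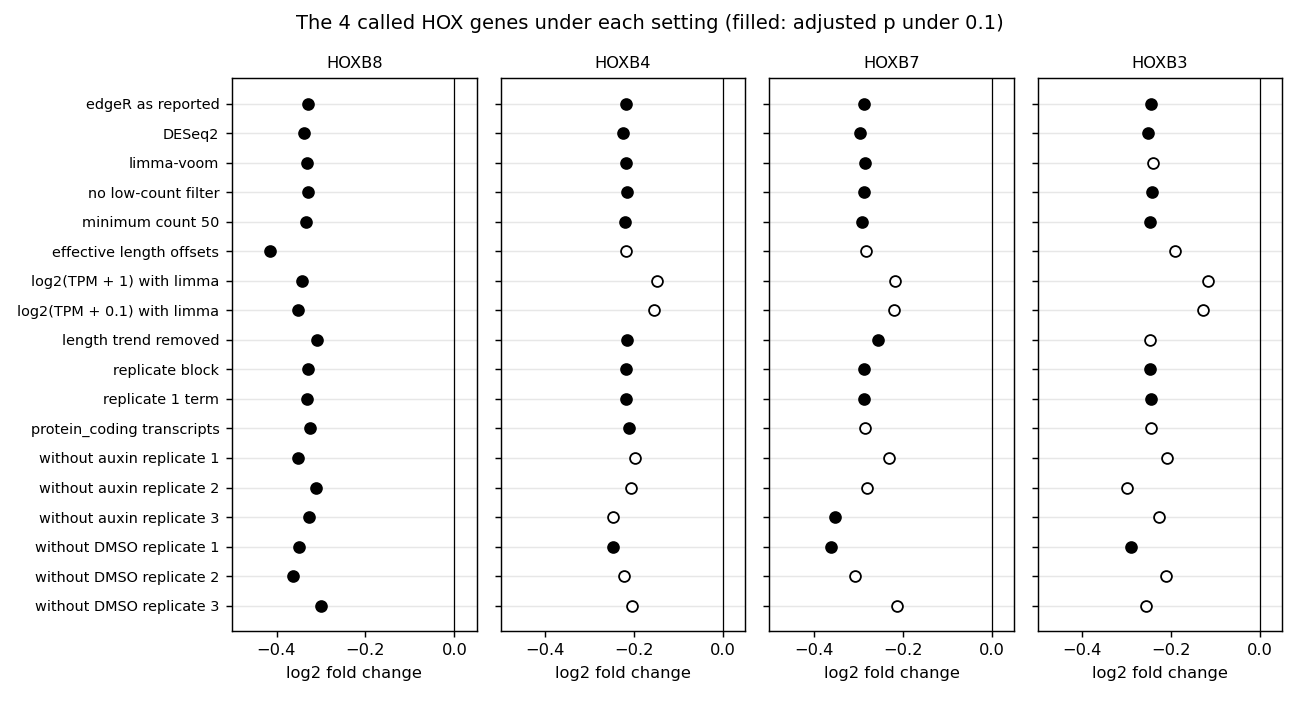
Log2 fold change (auxin minus DMSO) of the 4 called genes under the reported fit and 17 alternatives. Filled points have an adjusted p under 0.1; HOXB8 is filled throughout, HOXB3 in 6 of the 17 alternatives, and no point crosses 0.

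Outside HOXB, no gene was called in the reported fit, whereas some were called with replicate terms, as given in the closing section. HOXA3 stood at 8.13, 7.44 and 7.58 CPM in auxin and 6.37, 6.85 and 6.58 CPM in DMSO, with a log2 fold change of 0.23 (SE 0.08, edgeR adjusted p = 0.136). HOXC13, a gene of hair and nail formation, stood at 5.28, 5.68 and 6.13 CPM in auxin and 5.00, 3.96 and 5.11 CPM in DMSO (log2 fold change 0.28, SE 0.11, edgeR adjusted p = 0.196). Both genes had an unadjusted p under 0.05 and, in CPM, higher values in every auxin library than in any DMSO library. In TPM the groups overlapped for HOXA3, at 5.32 to 6.75 in auxin and 4.66 to 5.37 in DMSO, but not for HOXC13.

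The largest fitted differences belonged to scarce genes. HOXD11, a limb patterning gene, had 27, 16.1 and 25 estimated counts in auxin and 11, 5 and 16 in DMSO, with a log2 fold change of 0.99 (SE 0.37, edgeR adjusted p = 0.164). HOXC4 had 16, 19 and 23 counts in auxin and 39, 15.2 and 32.5 in DMSO, with a log2 fold change of -0.67 (SE 0.30, edgeR adjusted p = 0.229). The groups overlapped in CPM for both genes, and both share exon bases with a neighbour. Across the 32 genes, auxin and DMSO libraries did not overlap in CPM in 9. Among them HOXA3, HOXC8 and HOXC13 had higher and HOXB3, HOXB4, HOXB5, HOXB7 and HOXB8 lower values in auxin. Over all tested genes 26.7% did not overlap, 13.7% higher and 13% lower, so the share among the HOX genes is close to the background.

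The abundant genes of the other clusters stayed within the spread of the libraries. HOXA9 stood at 62.5, 61.0 and 57.9 CPM in auxin and 64.7, 63.0 and 62.0 CPM in DMSO (log2 fold change -0.06, SE 0.05). HOXA10 was at 22.4, 18.1 and 21.6 CPM against 20.1, 20.3 and 22.1 CPM (log2 fold change -0.01, SE 0.08), and HOXA7 at 15.7, 13.6 and 14.6 CPM against 16.6, 14.8 and 16.6 CPM (log2 fold change -0.13, SE 0.08). The ranges of all 3 HOXA genes overlapped. HOXC9 was at 12.3, 12.3 and 12.6 CPM in auxin and 11.7, 12.6 and 11.6 CPM in DMSO (log2 fold change 0.05, SE 0.07). HOXC6 was at 11.2, 13.6 and 13.5 CPM against 9.77, 11.3 and 13.4 CPM (log2 fold change 0.16, SE 0.12), and HOXC5 at 4.43, 5.02 and 4.93 CPM against 4.73, 4.14 and 5.00 CPM (log2 fold change 0.05, SE 0.10). HOXC6 varied as much within DMSO as between the groups. HOXD8 was at 2.54, 2.50 and 3.25 CPM in auxin and 2.72, 3.07 and 2.97 CPM in DMSO (log2 fold change -0.08, SE 0.13). HOXD3 was at 0.639, 0.555 and 0.686 CPM in auxin and 0.431, 0.723 and 0.742 CPM in DMSO. HOXD4 was at 0.328, 0.462 and 0.479 CPM against 0.339, 0.543 and 0.412 CPM. The groups overlapped for HOXD8, HOXD3 and HOXD4. HOXD3 and HOXD4 had at most 45 counts in a library, with log2 fold changes of -0.0019 (SE 0.25) and -0.01 (SE 0.26). These standard errors leave room for differences of the size seen in HOXB8 in the HOXD genes, so such differences were not detectable at this depth.

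Genes that work with or beside HOX genes were read from the same fit. Of 180 companion genes 105 were tested and 12 were called, 8 higher and 4 lower, beside the 4.32% and 2.46% of all genes. The median log2 fold change was 0.02. Inside the clusters, of 61 other annotated genes 7 had a transcript in the tables and 0 passed the filter, and the long non-coding RNAs of the clusters were not analysed here. Of the 6 genes flanking HOXB none was called by edgeR, DESeq2 or limma-voom, and 0 had an unadjusted p under 0.05. Their log2 fold changes ran from -0.09 for ATP5MC1, a subunit of mitochondrial ATP synthase, to 0.20, with CBX1, a heterochromatin protein, at -0.03 (SE 0.05). Among the 6 genes flanking HOXC, CALCOCO1, an autophagy receptor, rose (log2 fold change 0.37, SE 0.10, edgeR adjusted p = 0.0940), as did ATF7, a stress-responsive transcription factor (0.22, SE 0.05, adjusted p = 0.0652). Beside HOXD, NFE2L2, the regulator of the oxidative stress response, rose (0.21, SE 0.04, adjusted p = 0.0382) and ATP5MC3, a further ATP synthase subunit, fell (-0.15, SE 0.04, adjusted p = 0.0693). Of the 17 alternatives CALCOCO1 was called in 6, ATF7 in 9, NFE2L2 in 14 and ATP5MC3 in 8. Offset for effective length ATF7 was at 0.11 (adjusted p = 0.573), and on log2(TPM + 1) ATP5MC3 was at -0.08. All 4 calls were lost without auxin replicate 2 or DMSO replicate 2, and CALCOCO1 was kept only without auxin replicate 1, ATF7 without auxin or DMSO replicate 1 and ATP5MC3 without DMSO replicate 1. The most abundant flanking genes that were not called were HNRNPA1 at -0.10 (SE 0.05) and ATP5MC2 at -0.11 (SE 0.04) beside HOXC, HNRNPA3 at -0.09 (SE 0.05) beside HOXD, and CBX3 at -0.12 (SE 0.04) and TAX1BP1 at 0.05 (SE 0.04) beside HOXA.

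Of the 33 Polycomb genes tested 2 rose and 3 fell, beside 4.32% and 2.46% of all tested genes. The largest Polycomb difference was not called, JARID2 at a log2 fold change of 0.72 (SE 0.20, edgeR adjusted p = 0.126). JARID2 stood at 50.2, 67.3 and 71.5 CPM in auxin and 30.4, 39.3 and 45.2 CPM in DMSO. LCOR, a PRC2 accessory gene, was at a log2 fold change of 0.28 (SE 0.06, edgeR adjusted p = 0.0464) and CBX7, a PRC1 reader, at 0.23 (SE 0.06, adjusted p = 0.0892). PCGF1 fell by 0.19 on the log2 scale, PHF19 by 0.13 and the PRC2 core subunit EED by 0.17, while the catalytic subunit EZH2 was at -0.09 (SE 0.04, adjusted p = 0.253). All 5 Polycomb calls were lost without auxin replicate 2, DMSO replicate 2 or DMSO replicate 3, and they were made in 10 (LCOR), 8 (CBX7), 7 (PCGF1), 6 (PHF19) and 6 (EED) of the 17 alternatives. PHF19 lost its call whichever library was left out. With the length trend removed LCOR was at 0.11 and PCGF1 at -0.12, and on log2(TPM + 1) EED was at -0.11. Of 22 Trithorax and MLL genes AFF1, an elongation factor and MLL fusion partner, rose (0.29, SE 0.06, adjusted p = 0.0326), and 0 fell. AFF1 was called in 10 of 17 alternatives, was at 0.15 (adjusted p = 0.316) with the length trend removed, and lost the call without auxin replicate 2, auxin replicate 3 or DMSO replicate 2. Of 7 TALE cofactors tested 0 were called by edgeR, DESeq2 or limma-voom and 1 had an unadjusted p under 0.05, PKNOX1 at 0.15 (SE 0.05, adjusted p = 0.128). MEIS3 was at -0.01 (SE 0.06), and MEIS1 had at most 2 counts in any library. Of the 11 CTCF and cohesin genes 0 were called by edgeR, DESeq2 or limma-voom and 0 had an unadjusted p under 0.05. CTCF was at -0.08 (SE 0.05), RAD21 at -0.04 (SE 0.10) and PDS5A at 0.04 (SE 0.05). Over all tested genes edgeR called 6.78%, and 21.1% had an unadjusted p under 0.05. At that share 0 calls among 7 or 11 genes say little. The other most abundant members of the lists lay close to 0, with RBBP7 at -0.06, RBBP4 at -0.03, DPY30 at -0.04 and PSIP1 at -0.02. EED, EZH2, JARID2, MEIS1 and CTCF were named after their values were seen.

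Retinoid signalling held the largest change of any companion gene. ALDH1A3, an enzyme that makes retinoic acid, stood at 458.9, 400.4 and 385.9 CPM in auxin and 188.7, 155.9 and 154.9 CPM in DMSO. Every auxin library was above every DMSO library by a wide margin, and the log2 fold change was 1.32 (SE 0.09, edgeR adjusted p = 0.000638). It was called in all alternatives. RARG, a retinoic acid receptor, stood at 59.9, 56.8 and 56.3 CPM in auxin and 50.7, 46.5 and 50.5 CPM in DMSO (0.23, SE 0.05, adjusted p = 0.0455), and was called in 11 of 17 alternatives, but not without auxin replicate 2, DMSO replicate 2 or DMSO replicate 3. Beside these, CRABP2, a retinoic acid carrier, was at -0.11 (SE 0.08, adjusted p = 0.492). In all, 2 of the 8 retinoid genes tested rose and 0 fell, beside 4.32% and 2.46% of all tested genes. CDX2, a ParaHox gene that regulates HOX genes in the gut, was at 0.03 (SE 0.07) and PDX1 at -0.06 (SE 0.14).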

How the data were processed

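Poly(A)-selected, directional libraries were sequenced in paired ends of 43 bases. Per the submitters' processing notes reads were assigned with kallisto to hg38 transcripts and differences tested with sleuth. Not given in the sources used here were the transcript release and the strand setting. The deposited tables hold estimated counts per transcript, not normalised, with length and effective length. Identifiers without version were matched to GENCODE 44 (178869 of 199240, holding 96.2% to 96.3% of counts). Estimated counts were summed per gene and rounded, and TPM was computed from counts and effective lengths.

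Auxin and DMSO libraries, grouped by label, were compared with edgeR 4.0.16 (R 4.3.3; robust quasi-likelihood, TMM, minimum count 10 and total 15, treatment only, false discovery rate 0.1). Log2 fold changes are auxin minus DMSO. Alternatives were DESeq2 1.42.0, limma 3.58.1 (voom, log2(TPM + 1) and log2(TPM + 0.1)), other filters, length corrections, replicate terms, protein_coding transcripts only, and leaving out each library. The test was tried on simulated counts. The changed genes were drawn from all expression levels and were fewer than the genes called in the data. The test recovered 42.7% of the genes changed 1.25-fold and 74% of those changed 1.5-fold. These shares are taken over all levels and do not give the recovery for an abundant or a scarce HOX gene. Unchanged genes made up 13.4% of the simulated calls, above the 10% that a false discovery rate of 0.1 allows. Depth of 52.5 to 68.4 M counts limits precision for scarce genes, and the limits for genes at 0 counts cover counting error only. Standard errors come from the edgeR fit and include variation between libraries. Members, gene lists and tests were chosen with earlier results of these data known. Values in every library are given for called HOX genes, the 3 highest per cluster and those with an unadjusted p under 0.05; of each companion list, up to 4 called members and the 2 highest are named. No protein sequences were used. A HOX gene that entered the fit and the counts is not reported here by name.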

Additional observations from a re-analysis of the deposited data

How the results depend on the processing

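The number of HOX genes called, 4, became 2 with protein_coding transcripts, 1 when offset for effective length, 1 on log2(TPM + 0.1) and 2 on log2(TPM + 1), 8 with a term for replicate 1 and 10 with the replicate block, and ranged from 1 to 4 when 1 library was left out. All genes called, 1069, became 1638 with DESeq2, 650 with the length trend removed, 383 when offset for effective length, 269 and 571 on log2(TPM + 0.1) and log2(TPM + 1), 3864 with the replicate 1 term and 4867 with the replicate block, and ranged from 183 to 1566 with 1 library left out. Companion genes called, 12, became 3, 4, 1, 5, 28 and 39 under effective length offsets, log2(TPM + 1), log2(TPM + 0.1), the length trend removed, the replicate 1 term and the replicate block, and ranged from 1 to 14 with 1 library left out. The cause was not tested. Of all calls 63.7% were higher in auxin, against 48.5% with DESeq2, 49.7% with the length trend removed, 74.2% when offset for effective length, 92.6% on log2(TPM + 0.1) and 94.9% on log2(TPM + 1), 52.6% with the replicate block and 53.2% with the replicate 1 term.

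The replicate numbers do not pair the libraries by the labels, and deviations of same-numbered libraries correlated at 0.15, 0.05 and 0.05, so the replicate block is given only here. Every library correlated best with its own number, a hint from the data and not from the design. Only replicate 1 stood apart, since auxin replicate 2 was at 0.0490 with DMSO replicate 2 and 0.0487 with DMSO replicate 3. The genes called with the block included HOXA3, HOXC6, HOXC13 and HOXD11 as higher and HOXA7, HOXB3, HOXB4, HOXB7 and HOXB8 as lower. HOXA3, HOXC13 and HOXD11 were also called as higher with the replicate 1 term.

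For the 31 named genes tested, 364 alternative values kept direction and call, 119 lost the call, 12 gained one and 27 changed sign; none of the sign changes was in a called gene. Of the 16 called named genes HOXB8 and ALDH1A3 were called in every setting. The sign changes were near 0. HOXA10 was at 0.0179 with offsets, 0.0782 on log2(TPM + 0.1) and 0.0741 on log2(TPM + 1), and ranged from -0.0692 to 0.0797 with 1 library left out. HOXA9 was at 0.0025 on both TPM scales. HOXC5 ranged from -0.0292 to 0.11 with 1 library left out. HOXD3 was at 0.0395 with limma-voom, 0.0335 with offsets, 0.0464 with the length trend removed, 0.11 on log2(TPM + 0.1) and 0.0473 on log2(TPM + 1), and at 0.0114 with the replicate block and 0.0104 with the replicate 1 term, and ranged from -0.24 to 0.14 with 1 library left out. HOXD4 was at 0.0011 with limma-voom, 0.0330 on log2(TPM + 0.1), 0.0130 on log2(TPM + 1) and 0.0353 with the length trend removed, and ranged from -0.17 to 0.17 with 1 library left out. HOXD8 was at 0.0073 with offsets, 0.0567 on log2(TPM + 0.1) and 0.0432 on log2(TPM + 1). The alternative for read-through genes was not run, because no gene in the tables carries 2 HOX symbols. Unnamed genes that share exon bases with 2 HOX genes were not joined to them. Precision is limited by counts for members below 1 TPM.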
